A study of Mus musculus with 9 samples.

Results

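The 10 genes described here, Hp, Cp, Lcn2, Trf, Tfrc, Slc11a1, Slc40a1, Fth1, Ftl1 and Hmox1, encode iron-handling and acute-phase metal proteins. They were read from the deposited count tables by exact gene symbol, and are 10 of 40879 listed symbols, and all 10 were among the 13251 genes that passed the filter on low counts. They were selected on the levels measured in these libraries as well as on their known roles, with the fold changes between all 3 groups in view. Those levels and fold changes are therefore given as a description with no test.

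Iron enters most cells bound to transferrin, which is encoded by Trf and is taken up by the transferrin receptor, encoded by Tfrc. Inside the cell iron is stored in ferritin shells built from the Fth1 and Ftl1 chains, released from haem by haem oxygenase 1 (Hmox1), pumped out of phagosomes by the divalent metal transporter of Slc11a1, and exported across the plasma membrane by ferroportin (Slc40a1). Haptoglobin (Hp) captures free haemoglobin, ceruloplasmin (Cp) is a copper-containing ferroxidase that oxidises iron for loading onto transferrin, and lipocalin 2 (Lcn2) binds the iron-carrying siderophores of bacteria. Hp, Cp and Lcn2 are secreted proteins whose amount in plasma increases in the acute-phase response, and myeloid cells can make them as well as the liver.

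The cells were conventional type 2 dendritic cells (cDC2s), a subset of antigen-presenting cells, isolated by cell sorting from cultured mouse bone marrow. All cultures were grown for 9 days with recombinant human Flt3L at 100 ng/ml, the cytokine that drives dendritic cell development. The A20 KO group is titled A20iKO and has the genotype A20fl/fl x CD11ccre, in which Cre under the CD11c promoter removes floxed A20 in CD11c-expressing cells. A20, encoded by Tnfaip3, is a ubiquitin-editing enzyme that restrains NF-κB signalling. The IFNa group holds wild-type cells that received interferon alpha on day 5. The WT group holds wild-type cells titled without interferon, although the treatment protocol entry names interferon for all 9 libraries, A20 KO and WT included, and was not used for grouping. Each group had 3 libraries. The series' design text gives 3 mice per group, but whether 1 library holds the cells of 1 mouse, and the age and strain of the mice, could not be read from the labels. Spread between libraries may therefore be partly technical.

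Library totals ranged from 6900598 to 10552756 counts. Levels are CPM, each count per 1e6 counts of its library after TMM scaling. Errors give the SD over 3 libraries, or an approximate SE of a fitted log2 fold change where named. Each read marks a transcript's 3' end, so long and short transcripts can be compared directly. The targeted gene Tnfaip3 had 285, 476 and 377 counts in A20 KO libraries, 73, 84 and 74 in IFNa libraries and 232, 51 and 42 in WT libraries, so WT replicate 1 stood apart from the other WT libraries. A tag outside the removed exons is counted with or without the deletion, and the place of the tags is not given, so this count does not check the knockout. All 11 listed cDC2 markers were present in every library, with summed levels of 11710 to 12790 CPM in A20 KO, 17500 to 20660 in IFNa and 23990 to 30750 in WT. Stromal markers stood apart in 3 libraries, 1 per group: their sum reached 4474 CPM in A20 KO replicate 1, 4834 in IFNa replicate 3 and 4703 in WT replicate 2, and lay between 484 and 2406 CPM in the others. In such bulk samples, fewer cells of a type and less RNA per cell cannot be told apart.

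Iron itself controls several of these transcripts through iron-responsive elements, short stem-loops bound by the iron regulatory proteins when cells lack iron. Elements in a 5' UTR block translation of the message, and those in the 3' UTR of the transferrin receptor protect it from decay. The elements found in the 10 genes are shown because they separate messages whose translation iron controls, which a transcript count does not record, from a message whose amount is itself under iron control. Sequences are from GENCODE M21 transcripts (build GRCm38, gene strand, written with T), in lower case with the 6-base loop CAGTGN in capitals. The last loop base, N, had to be A, C or T. A site needed a bulged C before the upper stem, 5 of 5 paired bases in the upper stem and at least 4 of 5 in the lower stem, with G-T pairs allowed and only the transcript strand searched. The number in each name is the first base of the site within that UTR.
Tfrc 3' UTR, base 887 of 2461, chromosome 16: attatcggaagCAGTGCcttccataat
Tfrc 3' UTR, base 1266 of 2461, chromosome 16: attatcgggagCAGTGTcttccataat
Tfrc 3' UTR, base 1331 of 2461, chromosome 16: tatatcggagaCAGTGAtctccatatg
Tfrc 3' UTR, base 1378 of 2461, chromosome 16: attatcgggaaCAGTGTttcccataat
Slc40a1 5' UTR, base 91 of 319, chromosome 1: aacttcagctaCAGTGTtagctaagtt
Fth1 5' UTR, base 659 of 795, chromosome 19: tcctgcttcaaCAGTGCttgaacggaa
Ftl1 5' UTR, base 79 of 253, chromosome 7: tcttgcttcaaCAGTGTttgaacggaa
The Fth1 and Ftl1 sites were identical at 25 of 27 bases, and the first pair of Tfrc sites at 25 of 27. The Slc40a1 site shared 13 of 27 bases with either ferritin site. Such a match lay in the 5' UTR of 3 of the 10 genes and in the 3' UTR of 1. Over all genes with an annotated UTR it lay in 6 of 21181 5' UTRs (0.0283%) and 7 of 21824 3' UTRs (0.0321%). No match in the windows of the other genes says only that these letters and pairs were not there.

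**Figure D1:**
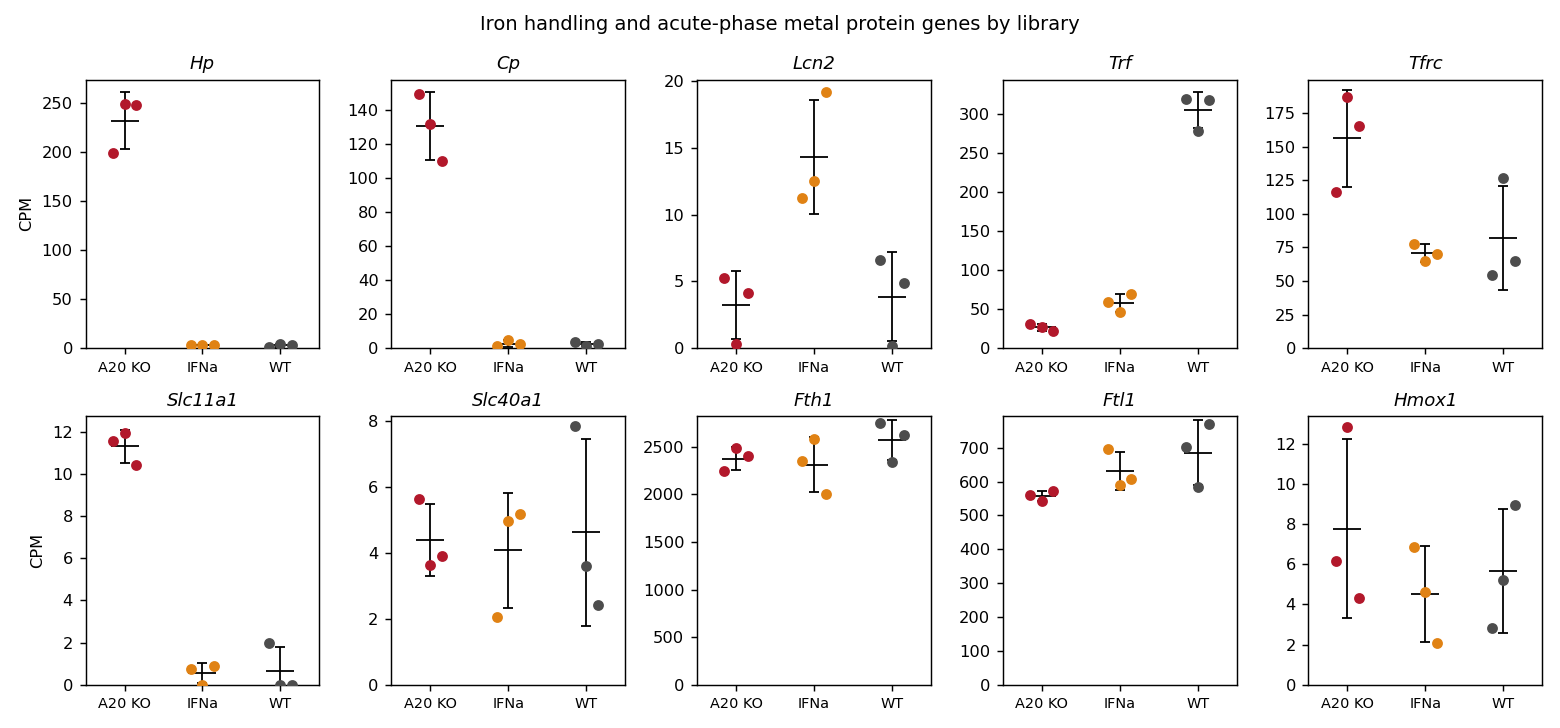
Level of each of the 10 genes in CPM (y axis, linear, from 0) in A20 KO, IFNa and WT libraries, with 1 point per library and the mean and SD of 3 in black. Hp, Cp and Slc11a1 were high in the 3 A20 KO libraries, Trf was high in the 3 WT libraries, and the IFNa libraries were highest for Lcn2.

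The levels of the 10 genes spanned a wide range. Fth1 ranked first, with 2376 ± 122 CPM in A20 KO, 2315 ± 289 in IFNa and 2574 ± 207 in WT, above 99.83% of the genes kept. Slc11a1 ranked last, with means of 11.3 CPM in A20 KO, 0.551 in IFNa and 0.654 in WT. Without any test, 3 of the 10 genes were higher in all 3 A20 KO libraries than in every WT library and 2 were lower. Over all genes tested, the groups did not overlap for 28.0% (15.4% higher and 12.6% lower). Between IFNa and WT, 1 gene was higher and 1 lower without overlap, against 18.2% of all genes tested (9.77% higher and 8.45% lower). Between A20 KO and IFNa, 4 were higher and 3 lower without overlap, against 24.6% (12.3% higher and 12.3% lower). The median log2 fold change of the 10 genes was 0.19 for A20 KO over WT, -0.16 for IFNa over WT and 0.44 for A20 KO over IFNa, beside -0.011, -0.025 and 0.018 over all genes tested. The 3 comparisons share libraries pairwise and are not independent of each other, and since the 10 genes were chosen with these contrasts in view, nothing is read from the counts.

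Among the acute-phase metal proteins, Hp, which clears haemoglobin from plasma, stood at 198, 249 and 248 CPM in A20 KO libraries, 3.05, 3.59 and 2.97 in IFNa libraries and 1.37, 3.75 and 2.95 in WT libraries. All 3 A20 KO libraries were far above the other 6, and the IFNa libraries lay within the range of WT. Its level was 86.2-fold higher in A20 KO than in WT (log2 fold change 6.45, SE 0.324) and 72.3-fold higher in A20 KO than in IFNa (6.17, SE 0.319). Between IFNa and WT the log2 difference was 0.28 (SE 0.317), about the size of its error. The counts behind the low groups were small, with 79 summed over IFNa and 71 over WT, against 6053 over A20 KO.

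Cp, the ferroxidase of plasma that also has a membrane-anchored form on macrophages, had 149, 132 and 110 CPM in A20 KO libraries, 0.98, 4.64 and 2.23 in IFNa libraries and 3.53, 1.07 and 2.13 in WT libraries. The A20 KO libraries did not overlap the rest, and IFNa and WT spanned one another. Cp was 58.0-fold higher in A20 KO than in WT (log2 fold change 5.82, SE 0.513) and 49.8-fold higher than in IFNa (5.63, SE 0.509), with 0.19 (SE 0.499) for IFNa over WT. Cp overlaps Hps3 on the opposite strand by 13201 bases in GENCODE M21, and the counting is not stated to use strand. Hps3 had 26.6, 37.9 and 32.2 CPM in A20 KO libraries, 50.3, 49.0 and 46.5 in IFNa libraries and 59.2, 44.3 and 78.4 in WT libraries. Hps3 was thus lowest in the A20 KO libraries, where Cp was highest. How reads in the shared bases were counted is not given, and their part in the level of Cp was not tested.

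Lcn2, the siderophore binder, was the exception among these plasma proteins. It had 5.26, 0.34 and 4.11 CPM in A20 KO libraries, 11.2, 12.5 and 19.2 in IFNa libraries and 6.57, 0.13 and 4.87 in WT libraries. All 3 IFNa libraries were above the other 6, while A20 KO and WT covered the same range and each had 1 library near 0, replicate 2 in both. The counts in those libraries were 3 in A20 KO replicate 2 and 1 in WT replicate 2. Lcn2 was 3.71-fold higher in IFNa than in WT (log2 fold change 1.88, SE 1.02), and A20 KO over IFNa was -2.14 (SE 1.04), or -1.61 without A20 KO replicate 2. For A20 KO over WT the log2 difference was -0.27 (SE 1.01), with an error several times its size, and it turned to 0.26 without A20 KO replicate 2 and to 0.37 without WT replicate 1. IFNa over WT was between 1.32, without WT replicate 2, and 2.49, without WT replicate 1.

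Markers of other cells also differed between the groups, not all in the same order as these genes. Summed monocyte or macrophage markers, 16 of 16 with a count in each group, ranged from 2413 to 2533 CPM in A20 KO, 1158 to 1365 in IFNa and 725 to 867 in WT. Without Ly6c2, a choice made after seeing the data, the sum was 1588 to 1863 CPM in A20 KO, 585 to 628 in IFNa and 687 to 850 in WT, so IFNa then lay below WT. The genes left in that sum did not share 1 order. Lyz2, the largest of them in WT, averaged 699 CPM in A20 KO, 129 in IFNa and 364 in WT, and Adgre1 37.1, 38.5 and 92.5. Csf1r (594, 186 and 146) and Fcgr1 (23.6, 74.7 and 1.92) were higher in IFNa than in WT. Ly6c2 itself averaged 741 CPM in A20 KO, 679 in IFNa and 26.0 in WT. Summed neutrophil or granulocyte precursor markers ranged from 322 to 464 CPM in A20 KO, 338 to 396 in IFNa and 100 to 126 in WT, with 13, 15 and 13 of 16 markers having a count. Ly6g, which defines mature neutrophils, was at 0 in all 9 libraries, and Cebpe and Fcnb were at 0 in A20 KO and WT. Members of that list ran opposite ways. Prtn3, a serine protease of early granulocyte precursors, averaged 174 CPM in A20 KO, 7.21 in IFNa and 0.594 in WT, and Mpo (myeloperoxidase) 65.4, 2.95 and 1.79. S100a8 averaged 5.99 CPM in A20 KO, 121 in IFNa and 36.5 in WT, and S100a9 4.85, 157 and 47.8, so this pair made up most of the IFNa sum. Of the granule proteins stored beside lipocalin 2 in neutrophils, Ltf had 3, 0 and 0 counts in A20 KO libraries, 9, 58 and 35 in IFNa libraries and 14, 0 and 80 in WT libraries. Ngp had 0, 0 and 19 counts in A20 KO libraries, 248, 374 and 238 in IFNa libraries and 82, 13 and 126 in WT libraries. The IFNa libraries were thus highest for Ngp as they were for Lcn2, but Ltf overlapped between IFNa and WT. Camp, on the same list, overlapped too, at 3.01 to 4.61 CPM in IFNa and 1.12 to 4.68 in WT. Mmp8, also listed, ran the other way, with averages of 77.8 CPM in A20 KO, 5.5 in IFNa and 8.6 in WT. Summed basophil or mast cell markers ranged from 190 to 213 CPM in A20 KO, 109 to 187 in IFNa and 39.5 to 69.3 in WT. Plasmacytoid dendritic cell markers ranged from 807 to 1047, 804 to 951 and 594 to 743, so both sums were above WT in every A20 KO and IFNa library. Within the plasmacytoid list Siglech ran the other way, with averages of 63.0 CPM in A20 KO, 159 in IFNa and 242 in WT. Tcf4, the largest member in each group, averaged 529, 394 and 312, and Bst2 163, 286 and 70.3. The part of these marker sets in the levels of Hp, Cp, Lcn2 and Slc11a1, and in those of the acute-phase genes described further on, was not tested.

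**Figure D2:**
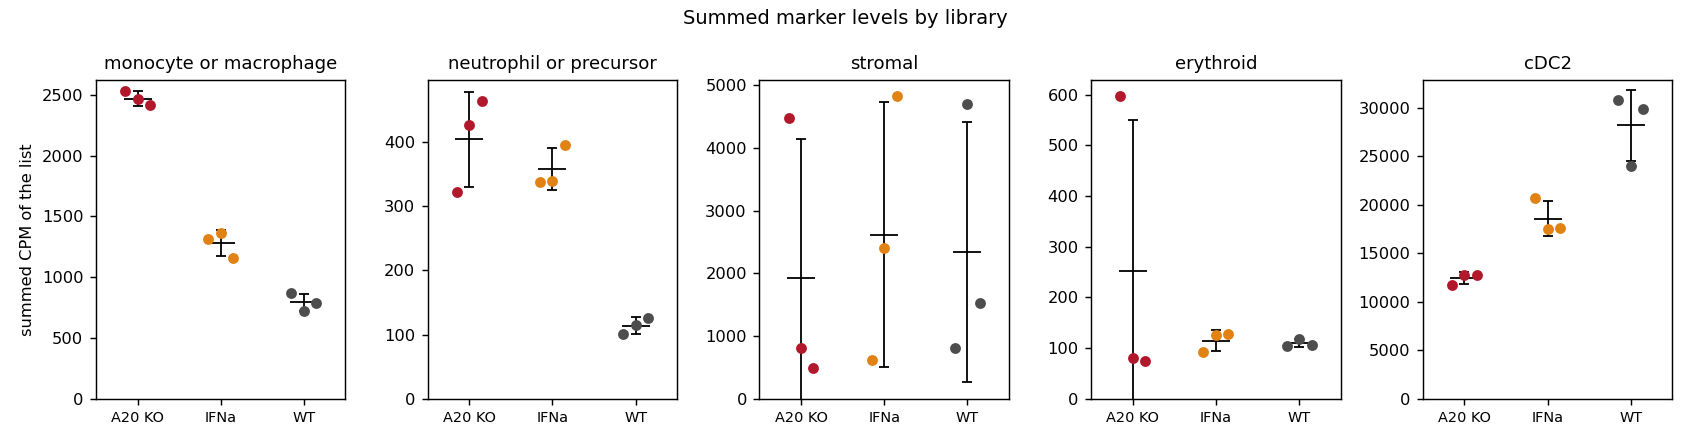
Summed level of each marker list in CPM (y axis, linear, from 0) by library, with A20 KO, IFNa and WT from left to right, 1 point per library and the mean and SD of 3 in black. Monocyte or macrophage markers were between 2413 and 2533 CPM in A20 KO and between 725 and 867 in WT, cDC2 markers ran the other way, and stromal markers were at 4474 CPM or more in 1 library of each group.

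Trf, which encodes the iron carrier transferrin, had the lowest log2 fold change of the 10 genes in A20 KO over WT and in IFNa over WT. It stood at 30.9, 27.7 and 22.1 CPM in A20 KO libraries, 58.9, 46.5 and 69.2 in IFNa libraries and 320, 278 and 318 in WT libraries. The 3 groups did not overlap and lay in that order, with A20 KO lowest, IFNa next and WT highest. Trf was 11.3-fold lower in A20 KO than in WT (log2 fold change -3.5, SE 0.207) and 5.24-fold lower in IFNa than in WT (-2.39, SE 0.197). A20 KO was 2.16-fold lower than IFNa (-1.11, SE 0.194). The counts were 235, 244 and 210 in A20 KO libraries, 541, 401 and 466 in IFNa libraries and 3260, 2078 and 3127 in WT libraries. Trf lies within Gm20425 on the same strand in GENCODE M21, a locus not analysed here. The summed cDC2 markers had the same order of groups, but H2-Aa, H2-Ab1 and Cd74 made up 90.6% to 93.7% of that sum. Without them, a choice made after seeing the data, it was 1040 to 1208 CPM in A20 KO, 1435 to 1620 in IFNa and 1504 to 2156 in WT, and IFNa overlapped WT. Of the 11 listed markers, 9 were lower and 1 higher in A20 KO over WT by edgeR, and 4 were lower in IFNa over WT. Cd209a averaged 10.99 CPM in A20 KO, 114.3 in IFNa and 331.3 in WT, with no overlap between groups, as for Trf. Clec10a (103.5, 484.3 and 515.8), Irf4 (58.65, 133.7 and 157.5) and Itgam (130.4, 200.8 and 238.7) averaged in that order, but IFNa overlapped WT. Sirpa (456, 198 and 170) and Itgax (132.8, 104.7 and 91.82) averaged in the opposite order. The part of these markers in the level of Trf was not tested.

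Tfrc, the receptor that takes transferrin into the cell and carries the 4 elements printed above, was on average higher in A20 KO than in the other groups. It had 116, 187 and 165 CPM in A20 KO libraries, 77.7, 65.0 and 69.8 in IFNa libraries and 54.7, 127 and 64.6 in WT libraries. The A20 KO libraries were all above the IFNa libraries, but WT replicate 2 lay above the lowest A20 KO library. Tfrc was 1.90-fold higher in A20 KO than in WT (log2 fold change 0.93, SE 0.287) and 2.20-fold higher than in IFNa (1.14, SE 0.288). IFNa over WT was -0.21 (SE 0.286). WT replicate 2 is one of the 3 libraries with high stromal markers. Without it the log2 difference was 1.39 for A20 KO over WT and 0.25 for IFNa over WT, and without all 3 such libraries 1.56 and 0.26.

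Set against each other within a library, Trf and Tfrc separated the 3 groups. There were 0.266, 0.148 and 0.134 Trf counts per Tfrc count in A20 KO libraries, 0.759, 0.715 and 0.992 in IFNa libraries and 5.84, 2.19 and 4.92 in WT libraries. Tfrc counts thus exceeded Trf counts in all 6 A20 KO and IFNa libraries, and Trf counts exceeded Tfrc counts in all 3 WT libraries. In IFNa the lower ratio came with lower Trf, since Tfrc lay within the WT range.

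**Figure D3:**
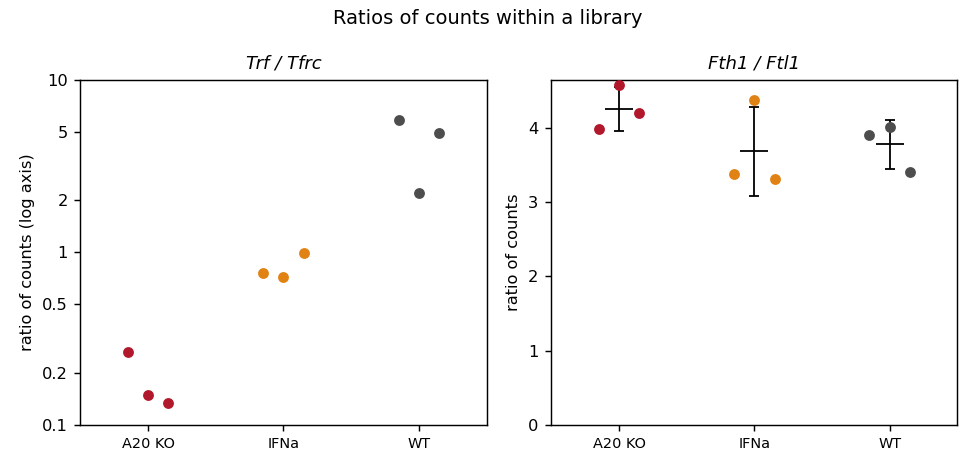
Ratio of Trf to Tfrc counts (left, log axis) and of Fth1 to Ftl1 counts (right, linear axis from 0) in each library of the A20 KO, IFNa and WT groups, with the mean and SD of 3 in black on the right. The Trf to Tfrc ratio was at most 0.266 in A20 KO, between 0.715 and 0.992 in IFNa and at least 2.19 in WT, while the Fth1 to Ftl1 ratio lay between 3.31 and 4.58 in all 9.

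Slc11a1, whose product removes metal ions from the phagosome of macrophages and was first known as a resistance gene for intracellular pathogens in mice, was at 11.6, 11.9 and 10.4 CPM in A20 KO libraries. It was at 0.76, 0 and 0.89 CPM in IFNa libraries and 1.96, 0 and 0 in WT libraries. The A20 KO libraries lay close together and above all others. A library with 0 counts allows a level of up to 0.348 CPM in IFNa replicate 2, 0.401 in WT replicate 2 and 0.305 in WT replicate 3, which are the values of 3 counts and cover counting error only. The ratio of mean levels was 17.3-fold for A20 KO over WT (fitted log2 fold change 4.05, SE 1.51) and 20.5-fold over IFNa (4.34, SE 1.54). The fitted log2 fold change of IFNa over WT was -0.28 (SE 1.43). The 20 counts of WT replicate 1 were the whole of the WT signal. Without that library WT had no count, and A20 KO was at least 65.3-fold higher, taking 3 counts over both remaining WT libraries as the floor of 0.173 CPM. Slc11a1 passed the filter through A20 KO, where all 3 libraries reached the level it requires, against 0 in IFNa and 1 in WT, so it had to differ to be among the genes kept.

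Slc40a1, the only known iron exporter of vertebrate cells, was low in all groups. It had 5.65, 3.63 and 3.90 CPM in A20 KO libraries, 2.07, 4.98 and 5.20 in IFNa libraries and 7.85, 3.61 and 2.44 in WT libraries. The 3 groups covered the same range. The log2 differences were -0.08 for A20 KO over WT (SE 0.774), -0.18 for IFNa over WT (SE 0.776) and 0.11 for A20 KO over IFNa (SE 0.776). The first was 0.55 without WT replicate 1 and -0.39 without WT replicate 3. With 19 to 80 counts per library and SEs of this size, a difference was not detectable at this depth, which does not show that it is absent.

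Of the ferritin chains, Fth1 carries the ferroxidase site and Ftl1 aids the mineral core. Fth1 had 2244, 2485 and 2401 CPM in A20 KO libraries, 2353, 2583 and 2009 in IFNa libraries and 2748, 2344 and 2630 in WT libraries. The groups overlapped, with log2 differences of -0.12 for A20 KO over WT, -0.15 for IFNa over WT and 0.04 for A20 KO over IFNa (SE 0.117 each). Ftl1 had 562, 543 and 572 CPM in A20 KO libraries, 696, 590 and 608 in IFNa libraries and 702, 584 and 771 in WT libraries. All 3 A20 KO libraries were below all others, by a small amount: the log2 difference was -0.3 for A20 KO over WT and -0.18 for A20 KO over IFNa, and -0.12 for IFNa over WT (SE 0.135 each). A20 KO over IFNa was -0.07 without IFNa replicate 1, and also with scaling by library size alone. The pseudogene Ftl1-ps2, whose reads could be split from those of Ftl1, had 22 to 50 counts per library, against 4089 to 7596 for Ftl1.

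The proportion of the chains overlapped between the groups. There were 3.99, 4.58 and 4.20 Fth1 counts per Ftl1 count in A20 KO libraries, 3.38, 4.38 and 3.31 in IFNa libraries and 3.91, 4.02 and 3.41 in WT libraries. The ratio averaged 4.26 ± 0.296 in A20 KO, 3.69 ± 0.598 in IFNa and 3.78 ± 0.324 in WT. Together the chains took 0.298 ± 0.00293% of all counts in A20 KO, 0.279 ± 0.0331% in IFNa and 0.336 ± 0.0200% in WT. The SD was 2.65% to 13.8% of the mean for either chain in any group. Since both carry the 5' UTR element printed above, these counts do not measure ferritin protein.

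Hmox1, which breaks haem down to biliverdin and free iron, had 6.18, 12.8 and 4.32 CPM in A20 KO libraries, 6.86, 4.64 and 2.08 in IFNa libraries and 2.84, 5.22 and 8.94 in WT libraries. The groups overlapped in every comparison. The log2 differences were 0.46 for A20 KO over WT (SE 0.715), -0.32 for IFNa over WT (SE 0.718) and 0.77 for A20 KO over IFNa (SE 0.720). A20 KO replicate 2 alone gave the first its sign, since without it A20 KO over WT was -0.12. Globin and other erythroid transcripts summed to 597 CPM in A20 KO replicate 1 and to at most 127 CPM in the other 8 libraries. Of the other listed erythroid markers, Ahsp had 19 counts and Alas2 49 counts in A20 KO replicate 1, against 0 and at most 13 in the other 8 libraries. Epor and Slc4a1 had at most 1 count in any library. Their part in the level of Hmox1 was not tested.

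**Figure D4:**
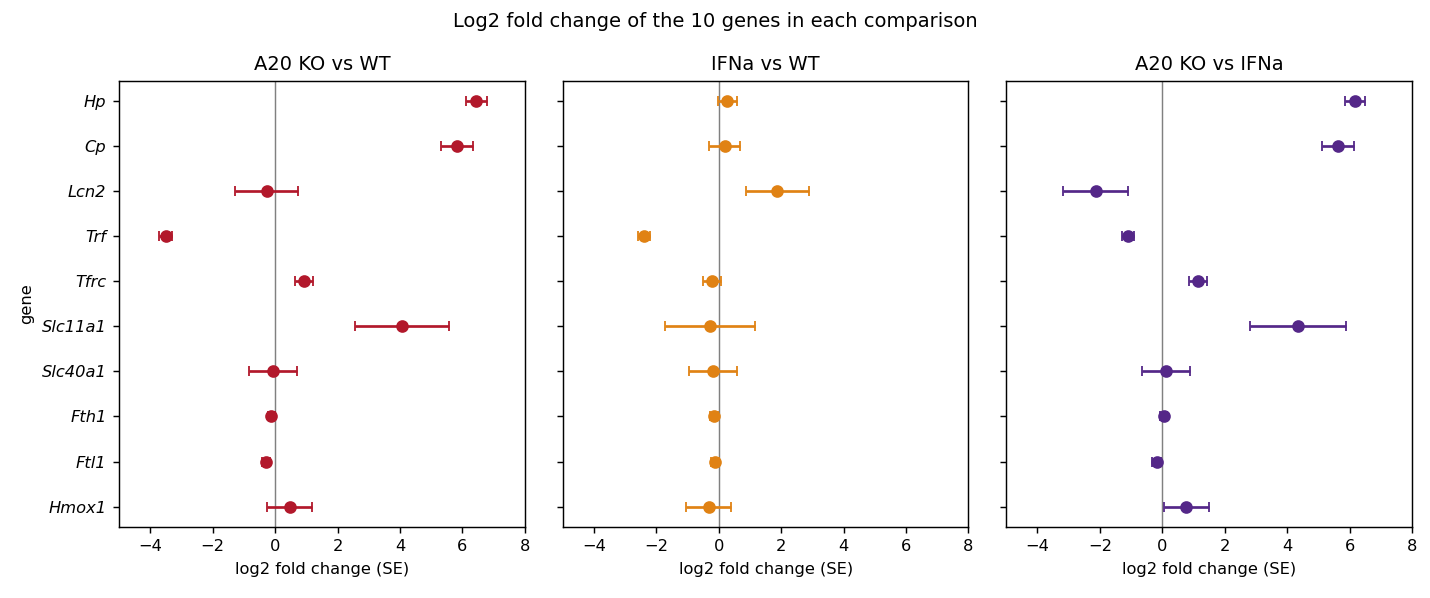
Log2 fold change (x axis, with SE as bars) of each of the 10 genes (y axis) for A20 KO over WT, IFNa over WT and A20 KO over IFNa, from 1 edgeR fit of 9 libraries. Hp and Cp lay above 5 in both A20 KO panels and near 0 in the IFNa over WT panel, Trf lay below 0 in all 3, and Fth1 and Ftl1 lay within 0.3 of 0.

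For the 6 of these genes that averaged at least 10 CPM, the genes with the most similar pattern over the 9 libraries were found among 8148 genes of at least that mean level, by Pearson r of log2(CPM + 0.5). These values are descriptions over 9 libraries that share the 3 groups. For Hp they were Prdx5 (r = 0.996), the colony-stimulating factor 1 receptor gene Csf1r (0.985) and Nt5dc2 (0.984). For Cp they were Acp2 (0.981), Rnf149 (0.973) and Pgs1 (0.97). Csf1r, the receptor of the macrophage growth factor, averaged 594 CPM in A20 KO, 186 in IFNa and 146 in WT. Trf was most like Cyb5a (0.986), the ribosomal protein gene Rpl30 (0.983) and Tpt1 (0.982), and Tfrc was most like the cyclin gene Ccna2 (0.965), Gskip (0.954) and Lage3 (0.937). Ccna2 averaged 70.6 CPM in A20 KO, 43.2 in IFNa and 47.7 in WT. The ferritin chains had different neighbours: Tgfbr2 (0.96), Ripk3 (0.932) and Ube4b (0.922) for Fth1, and Fam217b (0.952) and Gpr183 (0.951) for Ftl1.

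The surrounding pathways were covered by 8 lists of 137 genes, of which 99 passed the filter. These were tested with edgeR's quasi-likelihood test and Benjamini-Hochberg adjustment over all 13251 genes. The lists were chosen with earlier results of these data known, so their counts of calls are a description and lend no theme support. In A20 KO over WT, 8 of the 99 rose and 4 fell, beside 10.7% of all genes tested (5.77% higher and 4.91% lower). In IFNa over WT, 2 rose and 1 fell, beside 3.10% (2.40% higher and 0.702% lower). In A20 KO over IFNa, 8 rose and 4 fell, beside 5.46% (2.05% higher and 3.41% lower). With scaling by library size alone, the share of higher calls over all genes was 60.9% in IFNa over WT and 49.4% in A20 KO over IFNa, against 77.4% and 37.5% with TMM.

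The other acute-phase proteins held 4 of the 8 genes that rose in A20 KO over WT: 4 of 9 tested rose and none fell, and 19 of 28 listed were too low to test. The median log2 fold change was 2.73. The complement component C3 had 150, 127 and 112 CPM in A20 KO libraries and 4.32, 3.34 and 3.96 in WT libraries (log2 fold change 5.06, SE 0.292, edgeR adjusted p = 3.68e-07). Serum amyloid A3 (Saa3) averaged 664 ± 87.6 CPM in A20 KO and 15.8 ± 16.1 in WT (5.41, edgeR adjusted p = 0.00038). The serine protease inhibitor gene Serpina3g had 201, 371 and 361 counts in A20 KO libraries and 9, 0 and 0 in WT libraries (fitted log2 fold change 6.76). Like Slc11a1 it passed the filter through A20 KO, with 3 libraries at the required level there, 1 in IFNa and 0 in WT. It had to differ to be tested. The list was chosen with earlier results of these data known, so none of the 4 lends it support. Complement factor B (Cfb) averaged 52.5 ± 13.1 CPM in A20 KO and 7.95 ± 6.64 in WT (2.73, edgeR adjusted p = 0.0402). All 4 rose in A20 KO over IFNa too, by 3.58 for C3 and 4.9 for Saa3 (edgeR adjusted p = 6.99e-06 and 0.00132) and 3.14 for Cfb (edgeR adjusted p = 0.0361), with a fitted 5.29 for Serpina3g under the same limit. In IFNa over WT only C3 passed, with 10.8 ± 3.05 CPM in IFNa and 3.87 ± 0.492 in WT (1.47, edgeR adjusted p = 0.0074). As for Hp and Cp, the A20 KO libraries of C3, Saa3, Serpina3g and Cfb were all above every IFNa and WT library. Over all genes tested, 15.4% were higher without overlap in A20 KO over WT and 12.3% in A20 KO over IFNa. The iron-binding neutrophil protein gene Ltf, also on the acute-phase list, did not pass (-4.52, edgeR adjusted p = 0.177). Cfb lost its call on leaving out A20 KO replicates 1, 2 or 3 or WT replicate 3 (edgeR adjusted p = 0.0803, 0.116, 0.0654 and 0.0734), and its call over IFNa without any one of the 6 libraries (0.0628 to 0.153). C3 lost its IFNa over WT call with limma-voom (adjusted p = 0.302) and in a fit of those groups alone (edgeR adjusted p = 0.296).

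**Figure D5:**
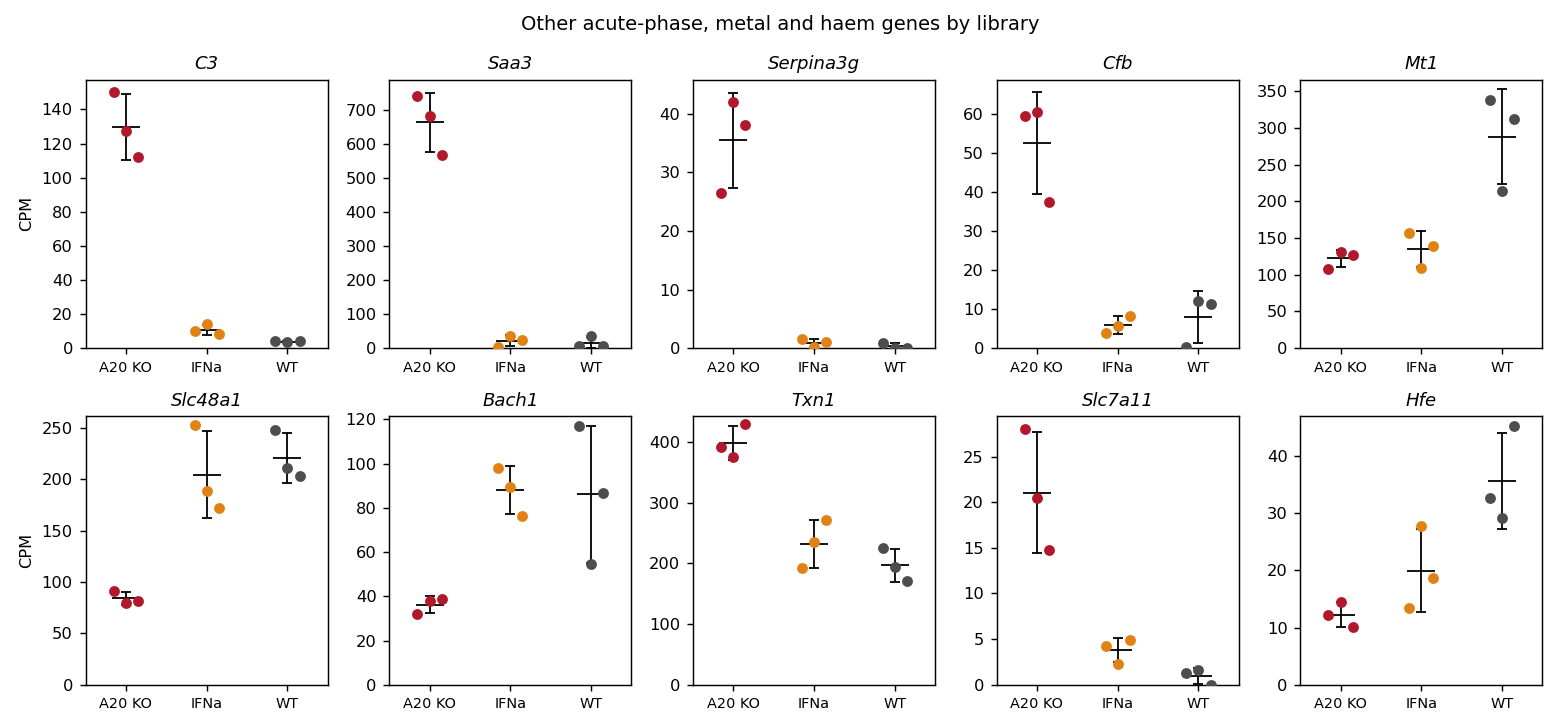
Level in CPM (y axis, linear, from 0) of 10 listed acute-phase, metal and haem genes by library, with A20 KO, IFNa and WT from left to right, 1 point per library and the mean and SD of 3 in black. C3, Saa3 and Serpina3g were high in A20 KO, Mt1 was high in WT, and Slc48a1 and Bach1 were low in A20 KO.

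Among genes of iron uptake and reduction, 8 of 14 were tested and none passed with edgeR in A20 KO over WT (2 at an unadjusted p under 0.05, 1 with DESeq2, 0 with limma-voom) or in IFNa over WT (0 by each). Cd163, the scavenger receptor that takes up haptoglobin bound to haemoglobin, had 7, 7 and 0 counts in A20 KO libraries and 153, 28 and 87 in WT libraries. Its log2 fold change was -3.99 with an edgeR adjusted p of 0.0567, and it passed with DESeq2 (adjusted p = 0.00286) and without WT replicate 2 (edgeR adjusted p = 0.0417). The endosomal reductase gene Cyb561a3 fell in A20 KO over IFNa (-0.86, edgeR adjusted p = 0.0257), with -0.51 over WT (0.147), and lost that call without A20 KO replicates 1 or 3 or IFNa replicate 1 (edgeR adjusted p = 0.0725 to 0.132). In IFNa over WT the smallest p-values were those of Cyb561a3 (0.35, edgeR adjusted p = 0.541) and Cd163 (-1.75, 0.585).

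None of the 9 tested genes of iron sensing and ferritin handling passed in any comparison with edgeR, DESeq2 or limma-voom, and 1 had an unadjusted edgeR p under 0.05, in A20 KO over IFNa. Aco1, which encodes iron regulatory protein 1, the binder of the elements printed above, differed by 0.34 in A20 KO over WT (edgeR adjusted p = 0.695), -0.65 in IFNa over WT (0.55) and 0.99 in A20 KO over IFNa (0.194). Pcbp4, of the family of poly(C)-binding iron chaperones, differed by 0.42 in A20 KO over WT (edgeR adjusted p = 0.642), the iron-sensing ubiquitin ligase subunit gene Fbxl5 by -0.34 in IFNa over WT (0.778) and Pcbp2 by -0.12 in A20 KO over IFNa (0.768). In the hepcidin axis only Hfe could be tested, a gene whose product binds the transferrin receptor. It fell in A20 KO, with 12.2 ± 2.20 CPM in A20 KO, 19.9 ± 7.23 in IFNa and 35.6 ± 8.39 in WT (-1.54 over WT, edgeR adjusted p = 0.0117). The call was lost without A20 KO replicate 3 or WT replicate 3 (edgeR adjusted p = 0.0585 and 0.0605). Hfe did not pass in IFNa over WT (-0.84, edgeR adjusted p = 0.307) or in A20 KO over IFNa (-0.71, 0.34).

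Of 16 haem genes tested, 1 rose and 1 fell in A20 KO over WT. Slc48a1, the haem transporter of endosomes and lysosomes, had 91.5, 79.6 and 81.1 CPM in A20 KO libraries, 252, 189 and 172 in IFNa libraries and 248, 211 and 203 in WT libraries. It fell in A20 KO over WT (-1.39, SE 0.178, edgeR adjusted p = 0.000221) and over IFNa (-1.28, 0.000803). Alas1, the first enzyme of haem synthesis, rose in A20 KO over WT (1.07, edgeR adjusted p = 0.028), but not without A20 KO replicates 2 or 3 or WT replicates 1 or 2 (edgeR adjusted p = 0.0764 to 0.135). The haem exporter gene Flvcr1 rose in A20 KO over IFNa (1.54, edgeR adjusted p = 0.0333), a call lost without any one of the 6 libraries but A20 KO replicate 1 (0.0658 to 0.132). In IFNa over WT none passed by edgeR, DESeq2 or limma-voom (2 at an unadjusted edgeR p under 0.05), and Hmox2, which encodes the constitutive haem oxygenase, and Flvcr1 differed by 0.55 and -0.85 (edgeR adjusted p = 0.237 and 0.373).

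Of 20 tested genes of mitochondrial iron and iron-sulphur clusters, the mitochondrial iron importer gene Slc25a37 rose in A20 KO over WT, with 40.4 ± 2.62 CPM in A20 KO and 18.4 ± 6.35 in WT (1.14, edgeR adjusted p = 0.0278). It lost the call without any one A20 KO library or without WT replicates 1 or 2 (edgeR adjusted p = 0.0534 to 0.11). Glrx5, a mitochondrial glutaredoxin of iron-sulphur cluster assembly, rose in A20 KO over IFNa (1.02, edgeR adjusted p = 0.0377), again lost without any one library but IFNa replicate 2 (0.0662 to 0.131). In IFNa over WT none passed by edgeR, DESeq2 or limma-voom (0 at an unadjusted edgeR p under 0.05), with the cluster scaffold genes Iscu at -0.67 and Nfu1 at -0.37 (edgeR adjusted p = 0.642 and 0.668).

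In zinc and copper handling, 20 of 20 listed genes were tested, of which 1 fell in A20 KO over WT, 1 fell in IFNa over WT and 1 rose in A20 KO over IFNa. The metal-binding protein metallothionein 1 (Mt1) fell in both A20 KO and IFNa, with 122 ± 12.1 CPM in A20 KO, 135 ± 24.1 in IFNa and 288 ± 65.2 in WT. Its log2 fold change over WT was -1.24 in A20 KO (edgeR adjusted p = 0.00129) and -1.09 in IFNa (0.0076). Mt1 and Trf were thus both lower in all A20 KO and IFNa libraries than in any WT library. The copper chaperone gene Atox1 rose in A20 KO over IFNa (0.63, edgeR adjusted p = 0.0334) and lost that call without any one library but A20 KO replicate 1 (0.0606 to 0.155).

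The oxidative stress genes regulated with Hmox1 were mixed, with 2 higher and 1 lower of 16 in A20 KO over WT. Bach1, the haem-sensing repressor of Hmox1, fell to 36.3 ± 3.67 CPM in A20 KO, against 86.1 ± 31.0 in WT (-1.25, edgeR adjusted p = 0.00634), and also fell in A20 KO over IFNa (-1.28, 0.00986), where IFNa replicate 1 decided the call (0.0518 without it). The cystine transporter gene Slc7a11 rose, with 28.0, 20.4 and 14.8 CPM in A20 KO libraries and 1.27, 1.60 and 0 in WT libraries (4.46, edgeR adjusted p = 0.00637). Thioredoxin 1 (Txn1) rose by 1.02 over WT (edgeR adjusted p = 0.00129) and 0.78 over IFNa (0.0134), the second lost without A20 KO replicate 3, IFNa replicate 1 or IFNa replicate 2 (0.0516 to 0.0666). Keap1, which marks the stress regulator Nrf2 for degradation, rose in IFNa over WT (0.91, edgeR adjusted p = 0.0126), a call lost without IFNa replicate 1 (0.069), and fell in A20 KO over IFNa (-0.69, edgeR adjusted p = 0.0419), a call lost without any one of the 6 libraries (0.0527 to 0.201). Hmox1 itself, at 14 to 113 counts per library, overlapped between all groups while its repressor gene was lower in A20 KO.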

How the data were processed

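Processed files of 9 libraries were used, made with the QuantSeq 3' mRNA-Seq FWD kit per the labels. The authors deposited raw counts, whole numbers with no scaling, for each gene symbol of a library. The submitters' processing notes name featureCounts 2.0.6, STAR 2.7.10b, fastp 0.23.1 and Bowtie2, and build GRCm39. What each did, the annotation, strandedness and multi-mapped reads are not given in the sources used, so counts of overlapping or near-identical genes are uncertain. No genome coordinates are given, since GENCODE M21 is of GRCm38.

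In R 4.3.3, genes were kept with edgeR 4.0.16 filterByExpr at a minimum count of 10 and a minimum total of 15. The 13251 genes kept held 99.83% of the counts. TMM factors and 1 quasi-likelihood fit of 9 libraries by group (6 residual degrees of freedom, common biological coefficient of variation 0.554) gave log2 fold changes, SEs and Benjamini-Hochberg adjusted p with a threshold of 0.05. Each SE is the size of the log2 fold change divided by the square root of its test's F statistic. It therefore depends on that test, and is approximate, above all where a group is near 0 counts. The steps were tested on simulated counts that varied less between libraries than these data, so that run does not give their error rate here. Library pairs within a group differed by a chi-square per degree of freedom of 14.4 to 64.3, more than counting error alone gives. None was thus the same library sequenced again, but separate libraries made from 1 sample are not excluded.

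The 10 genes and all lists were chosen with earlier results of these data known. From each pathway list and comparison, the text names up to 4 genes that passed by smallest p, or up to 2 of smallest p where none passed. For each of the 10 genes averaging at least 10 CPM, up to 3 genes of highest Pearson r are named. Some genes that these rules name are not reported here. Alternatives used DESeq2 1.42.0, limma 3.58.1, other scaling and filters, fewer libraries, a replicate block and a stromal covariate.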

Additional observations from a re-analysis of the deposited data

How the results depend on the processing

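No named gene with a call reversed its direction under the 20 alternatives run. Of 497 values of the 10 genes, 13 moved beyond the spread between libraries, and 75 of 728 values of named pathway genes changed their call. For A20 KO over WT, 1416 genes passed, and leaving out 1 library at a time gave 919 to 1372, with 919 without A20 KO replicate 2 and 942 without A20 KO replicate 3. Of the pathway genes 12 passed, against 18 with a stromal covariate and 8 to 13 leaving out 1 library (8 without A20 KO replicate 3). For IFNa over WT, 411 genes passed, against 705 with DESeq2, 720 with the stromal covariate and 283 to 420 leaving out 1 library. Of the pathway genes 3 passed there, against 2 with limma-voom, 2 in a fit of the pair of groups alone and 2 to 3 leaving out 1 library (2 without IFNa replicate 1). For A20 KO over IFNa, 723 genes passed, against 1143 with DESeq2, 1241 with the stromal covariate and 400 to 582 leaving out 1 library (400 without IFNa replicate 1, 421 without A20 KO replicate 2, 440 without IFNa replicate 2 and 450 without A20 KO replicate 3), and of the pathway genes 12 passed, against 6 with a replicate block and 4 to 8 leaving out any 1 of the 6 libraries. Scaling by library size alone shifted the median over all tested genes to -0.15 (log2) in IFNa over WT and 0.12 in A20 KO over IFNa. The cause was not tested for any of these, beyond the smaller number of libraries. With the replicate number as a block, 1075, 298 and 535 genes and 10, 3 and 6 pathway genes passed in the 3 comparisons. No pairing by number was seen: the correlation of deviations exceeded 0.1 in 1 of 9 same-numbered pairs (-0.394 to 0.262) and in 7 of 18 others (-0.333 to 0.383). The largest values were those among the 3 libraries high in stromal markers (0.383, 0.375 and 0.288). That shared difference could hide a pairing, so the check cannot exclude one. Low counts limit Lcn2, Slc11a1, Slc40a1 and Hmox1, each with at least 1 library under 20 counts. They also limit the IFNa and WT levels behind the ratios of Hp and Cp, with at most 31 counts per library for Hp and 40 for Cp.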
